A study of Mus musculus with 2 samples.

Results

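The 10 genes examined here belong to the mitochondrial and thermogenic control circuit of the cell: the PGC-1 coactivators Ppargc1a, Ppargc1b and Pprc1, the oestrogen-related receptors Esrra and Esrrg, the corepressor Nrip1, the DNA-binding factors Nrf1 and Gabpa, and the deacetylases Sirt1 and Sirt3. They were chosen by name, and every gene spot that carried one of these names was taken. This gave 21 probes for 10 genes, out of 41174 probes and 19503 named genes on the array, and every probe was 60 bases long and printed once. RNA of mice or cells that lack the cGMP-dependent protein kinase PKGI (gene Prkg1), a kinase activated by the second messenger cGMP, was set against wild-type RNA on 2 two-colour arrays. On the tissue array, knockout RNA of untreated brown adipose tissue (BAT) carried Cy5 and wild-type RNA carried Cy3. On the culture array, the RNA came from brown adipocytes differentiated in vitro from precursor cells of knockout and wild-type littermates, and here the knockout carried Cy3 and the wild type Cy5. All 4 RNAs came from the C57BL/6N background. The labels give no age, sex or number of animals behind each RNA, nor the deleted part of Prkg1. Each comparison had 1 array and neither was repeated with the dyes exchanged, so no difference below has a replicate check or a p-value, and a dye effect and the genotype cannot be told apart within an array. Since the dyes were opposite on the 2 arrays, a gene whose ratio differs in direction between them leans to the same dye on both.

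Brown fat burns fuel to make heat, and its mitochondria are built under the direction of the PGC-1 proteins. These proteins do not bind DNA themselves; they dock on nuclear receptors and other DNA-binding factors, among them ERRα and ERRγ (Esrra, Esrrg), NRF-1 (Nrf1) and GABP (Gabpa), and recruit the machinery that opens chromatin and starts transcription. RIP140, the product of Nrip1, works against them at many of the same receptors. SIRT1 removes acetyl groups from PGC-1α in the nucleus, and SIRT3 removes them from enzymes inside the mitochondrion, both at the cost of NAD+. In brown fat, adrenergic signals raise Ppargc1a through cAMP and CREB, and PGC-1α then acts with PPARγ and ERRs on Ucp1, the uncoupling protein that releases heat.

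The stretches just upstream of 5 of these genes are shown because they hold letters recognised by factors of the same circuit. The sequences are RefSeq's for assembly GRCm38.p6, bases -120 to -1 before the annotated start, on the strand of the gene. They lie at chr5:51567726-51567845 (Ppargc1a, minus strand), chr19:6921809-6921928 (Esrra, minus), chr7:140882310-140882429 (Sirt3, minus), chr16:84835004-84835123 (Gabpa, plus) and chr10:63339036-63339155 (Sirt1, minus). Capitals mark a TGACG core of the cAMP response element (Ppargc1a, Sirt3, Sirt1), a GCGCATG core of the NRF-1 motif (Esrra) or a CCGGAAG core of the ETS motif that GABP reads (Sirt3, Gabpa), each on either strand.
Ppargc1a: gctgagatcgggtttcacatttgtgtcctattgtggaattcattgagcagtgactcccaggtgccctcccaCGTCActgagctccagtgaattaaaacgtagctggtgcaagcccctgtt
Esrra: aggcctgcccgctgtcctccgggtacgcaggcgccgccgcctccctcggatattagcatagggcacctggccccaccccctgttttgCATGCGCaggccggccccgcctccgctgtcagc
Sirt3: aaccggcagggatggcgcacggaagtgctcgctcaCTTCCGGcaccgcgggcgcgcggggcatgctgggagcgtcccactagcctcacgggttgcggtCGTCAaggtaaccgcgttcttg
Gabpa: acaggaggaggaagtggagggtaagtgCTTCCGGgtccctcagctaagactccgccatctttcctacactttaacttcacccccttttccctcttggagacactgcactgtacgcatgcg
Sirt1: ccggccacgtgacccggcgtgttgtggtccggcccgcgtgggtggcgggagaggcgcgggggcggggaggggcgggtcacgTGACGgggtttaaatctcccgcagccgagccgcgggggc
The Ppargc1a core lay at -49 to -45, the Esrra core at -33 to -27, the Sirt1 core at -39 to -35 and the Gabpa core at -93 to -87. Sirt3 held both an ETS core at -85 to -79 and a TGACG core at -22 to -18. The search covered 15 windows of 9 of the genes, from 250 bases before to 50 after each start; Ppargc1b was not in the table. TGACG stood in 3 of these windows and in 20.8% of all 32851 windows, CCGGAAG in 2 against 8.86%, and GCGCATG in 1 against 3.91%. The full response element TGACGTCA (1.79% of all windows), the longer NRF-1 letters GCGCATGCG (1.75%), the ERR element TCAAGGTCA (0.423%) and its core AAGGTCA (4.72%) were found in no window of these genes. Shorter motifs lie within the longer ones. A match is a description of letters and not of a bound site.

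Each array held 45018 spots, of which 1639 were controls. On the tissue array 74.1% of spots stood well above background in the knockout channel and 63.1% in the wild-type channel, and on the culture array 68.1% and 70.1%. The SD between repeated spots of a probe was 0.098 on the log2 scale in BAT (191 probes) and 0.090 in culture (198 probes), which covers printing and scanning only. The 2 Prkg1 probes above background in both channels read -1.29 and -1.22 in BAT and -0.94 and -2.31 in culture, as log2 of knockout over wild type. Another probe, above background in the knockout channel alone, read 0.0055 in BAT and 0.17 in culture. With it, the gene means were -0.84 and -1.03. The probes' place relative to the deletion is unknown. Transcripts that differ between the sexes differed between the channels of the BAT array. Xist, the X-inactivation RNA, was at 4.41 there, and the Y-linked Eif2s3y, Ddx3y and Kdm5d were at -6.40, -3.56 and -2.15. In culture Xist differed as well, at -3.36, while the same Y-linked genes were at -0.12, 0.61 and 0.07. A difference of sex and the genotype cannot be told apart in the BAT ratios. The sex behind the culture RNAs is not given either, and its part in the culture ratios, Ppargc1a and Ppargc1b included, cannot be told apart from the genotype. All 16 skeletal muscle marker genes were at least 2-fold lower in knockout BAT (median -2.36), with 29 of their 31 probes above background in the knockout channel and 31 in the wild-type channel. Their summed level was 16.6 in the knockout and 19.1 in the wild type on the log2 scale. On the culture array all 10 general adipocyte markers were at least 2-fold lower in the knockout (median -4.69), from a summed level of 19.5 to 15.1. These included the fatty acid carrier Fabp4 (-5.58). Macrophage markers were at least 2-fold lower in 6 of 9 (median -1.76, summed level 18.2 in the wild type and 16.0 in the knockout). Smooth muscle markers were at least 2-fold higher in 4 of 6 (median 1.47, summed level 16.6 and 18.5). The brown adipocyte markers gave a signal above background on 10 of 10 probes in both BAT channels and in wild-type adipocytes, and on 8 of 10 in knockout adipocytes. They were past 2-fold in 5 of 9 in BAT (1 higher, 4 lower) and in 6 of 9 in culture (all lower). The 10 preadipocyte and fibroblast markers had a median of 0.13 on each array and none passed 2-fold. In such bulk RNA, fewer cells of a type and less RNA per cell cannot be told apart.

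Ratios below are log2 of knockout over wild type after background correction and loess normalisation, and a gene is called past the threshold at a 2-fold difference (1 on the log2 scale). In BAT, 125 of 15623 genes (0.8%) passed it upward and 381 (2.44%) downward. In cultured adipocytes, 377 of 15119 genes (2.49%) passed it upward and 631 (4.17%) downward. Over single probes the shares were 0.926% upward and 2.44% downward in BAT, and 2.07% and 3.89% in culture. The share of such genes that were higher in the knockout moved with the scaling. It was 24.7% in BAT, against 59.6% with the scanner software's own ratios, 59.5% in the deposited value table, 62.2% with median centring and no loess, 34.9% with outlier spots kept in the background fit and 0.37% when spiked-in controls set the zero. In culture it was 37.4%, against 47.8%, 47.8%, 13.5% and 17.4% for the scanner ratios, the deposited table, median centring and the spiked-in zero. The spiked-in zero moved the median of all genes to -0.84 in BAT and -0.22 in culture, and median centring without loess moved it to 0.25 and -0.26.

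The coactivators Ppargc1a and Ppargc1b were the only members past 2-fold, and they passed it in the cultured adipocytes. There, 2 of 10 members were lower and 0 higher, beside 4.17% of all genes lower. In BAT 0 of 10 were past 2-fold in either direction, beside 2.44% of all genes lower and 0.8% higher. The median member stood at -0.53 in culture, with all genes at -0.0018, and 9 of 10 members were below 0. In BAT the median member stood at 0.074, with all genes at 0.0034, and 4 of 10 were below 0. Of all genes, 49.8% were above 0 in culture and 50.5% in BAT. The scanner software gives each ratio an error of its own, with a median over the member probes of 0.206 in BAT and 0.211 in culture on the log2 scale. By the scanner software's own ratios, 15 of 21 probes in culture were lower by over 2 of these errors and 0 were higher. In BAT 3 of 20 probes were lower and 4 higher by that margin. These counts do not use the loess ratios given elsewhere, and the share of all probes past that margin was not computed.

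**Figure D1:**
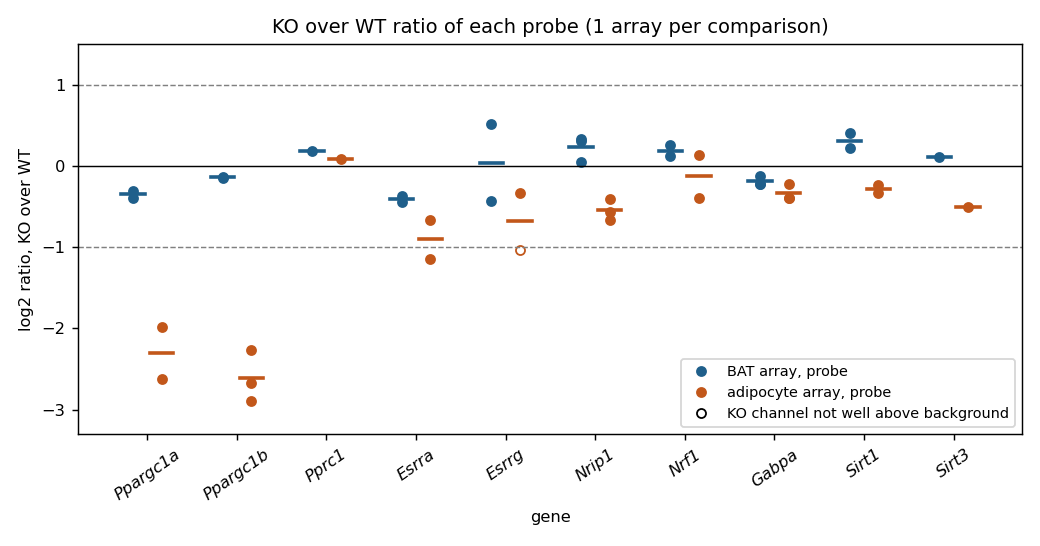
Log2 ratio of knockout over wild type for every used probe of the 10 genes (points; open, not well above background in the knockout) in BAT and in cultured adipocytes, 1 array each; short horizontal bars are gene means and dashed lines mark 2-fold. In culture 19 of 21 probes lie below 0, led by Ppargc1b and Ppargc1a, whereas the BAT probes lie between -0.45 and 0.51.

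PGC-1α, the product of Ppargc1a, is the cold-inducible coactivator of the family. Its brighter probe (chr5:50830839-50830898, in coordinates of the array's annotation, with the build not given in the sources used here) read a normalised log2 level of 12.00 in wild-type BAT, 11.61 in knockout BAT, 9.97 in wild-type adipocytes and 7.34 in knockout adipocytes. The other probe, at chr5:50828808-50828867, read 10.50, 10.19, 8.92 and 6.93 in the same order. Both probes put the 4 RNAs in the same order, with the tissue pair close together and the knockout culture far below the rest. The gene mean was -2.31 in culture (SD between probes 0.45, n = 2 probes), a 4.95-fold lower level, which placed Ppargc1a 80th from the lowest of 15119 genes. In BAT it was -0.35 (SD 0.054, n = 2 probes), with 14.9% of all genes lower still. That small BAT difference turned to 0.17 without loess. The step from tissue to culture made the ratio lower by 1.96, a difference that was not tested.

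PGC-1β, from Ppargc1b, shares much of the mitochondrial program of PGC-1α and is abundant in brown fat. Probe A_52_P526724 read 13.05 in wild-type BAT, 12.91 in knockout BAT, 10.15 in wild-type adipocytes and 7.48 in knockout adipocytes. Probe A_52_P293222 read 12.62, 12.47, 9.90 and 7.003 in that order. The BAT pair lay within 0.15 of each other on both probes, and the culture pair lay more than 2.6 apart. Probe A_51_P294891 was used in culture alone, at -2.27, because its BAT spot was marked as an outlier. The gene mean in culture was -2.61 (SD between probes 0.32, n = 3 probes), or 6.11-fold lower, 52nd from the lowest of 15119 genes. In BAT it was -0.14 (SD 0.0051, n = 2 probes), and 0.45 without loess. The knockout culture signals minus background were 197, 63.6 and 119 for the 3 Ppargc1b probes, and the culture ratio was -2.97 with no offset. PRC, from Pprc1, a serum-responsive relative of PGC-1α, did not follow. Its probe (chr19:45969227-45969286) read 10.22 in wild-type BAT, 10.41 in knockout BAT, 11.44 in wild-type adipocytes and 11.52 in knockout adipocytes, so the culture was the higher pair. Its ratios were 0.19 in BAT and 0.08 in culture, both below the scanner error of such a probe. The culture value turned to -0.33 with median centring.

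**Figure D2:**
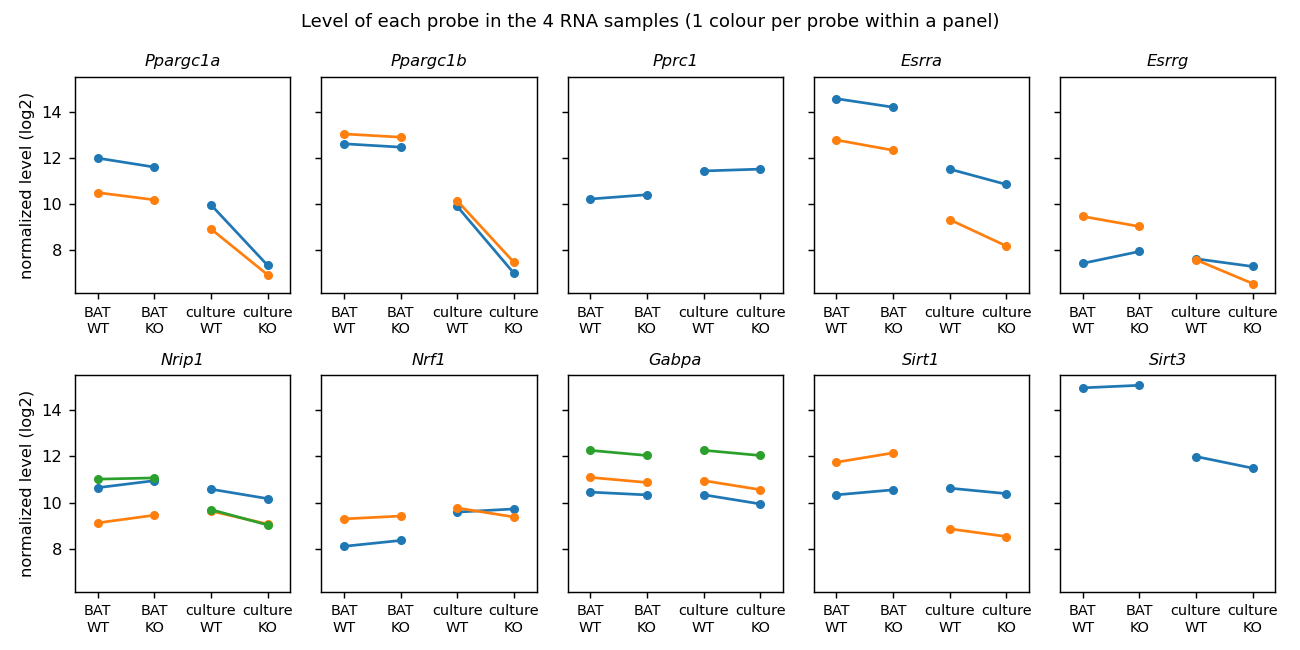
Normalised log2 level of each member probe in wild-type BAT, knockout BAT, wild-type adipocytes and knockout adipocytes, 1 value per RNA, with lines that join the pair of values a probe has on an array. The knockout culture is the lowest of the 4 RNAs for 16 of 20 probes, a share that was not counted over all probes. Pprc1 and 1 Nrf1 probe are higher in culture than in tissue.

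ERRα, from Esrra, is the receptor through which PGC-1 proteins reach many genes of oxidative metabolism. Its brighter probe (chr19:6730973-6731032) read 14.58 in wild-type BAT, 14.21 in knockout BAT, 11.52 in wild-type adipocytes and 10.85 in knockout adipocytes. The other (chr19:6736544-6736603) read 12.78, 12.34, 9.33 and 8.18. The knockout was the lower RNA of each pair on both probes. The BAT mean was -0.41 (SD between probes 0.055, n = 2 probes), the lowest of the 10 members there, and it turned to 0.23 without loess. In culture the mean was -0.91 (SD 0.34, n = 2 probes), or 1.87-fold lower, with 5.12% of all genes lower. It passed 2-fold under 2 alternatives, median centring (-1.30) and the spiked-in zero (-1.13).

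ERRγ, from Esrrg, is the family member favoured in oxidative tissues. Its probes were dim and they disagreed. The probe at chr1:187737462-187737521 read 7.43 in wild-type BAT, 7.95 in knockout BAT, 7.63 in wild-type adipocytes and 7.30 in knockout adipocytes. The probe at chr1:187740543-187740602 read 9.47, 9.03, 7.59 and 6.56. The first was higher and the second lower in knockout BAT, at 0.51 and -0.44, so the BAT mean of 0.039 (SD 0.67, n = 2 probes) stands for neither. In culture both were lower, at -0.33 and -1.03. The second was not well above background in the knockout culture. Its 2.04-fold lower level there rests on that dim signal and is not a bound. The culture mean of -0.68 (SD 0.49) became -1.08 with no offset and -1.53 with the scanner software's ratios or in the deposited table.

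RIP140, from Nrip1, restrains oxidative and thermogenic genes in fat. Its 3 probes read 10.65, 9.12 and 11.02 in wild-type BAT and 10.95, 9.45 and 11.07 in knockout BAT. In the adipocytes they read 10.58, 9.63 and 9.69 in the wild type and 10.17, 9.07 and 9.02 in the knockout. All 3 were on the higher side in knockout BAT and on the lower side in the knockout culture. The means were 0.23 in BAT (SD between probes 0.15, n = 3 probes) and -0.55 in culture (SD 0.13, n = 3 probes), neither past 2-fold.

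NRF-1 and the GABP α subunit bind promoters of nuclear genes for the respiratory chain, and both stayed within 2-fold on both arrays. The Nrf1 probe at chr6:30048287-30048346 read 8.10 in wild-type BAT, 8.35 in knockout BAT, 9.58 in wild-type adipocytes and 9.72 in knockout adipocytes. The one at chr6:30084667-30084726 read 9.29, 9.41, 9.76 and 9.37. They differed in direction in culture (0.14 and -0.39), where the mean was -0.13 (SD 0.37, n = 2 probes), and gave 0.19 in BAT (SD 0.092). Gabpa varied little, and each of its probes stayed within 0.53 across the 4 RNAs. The probe at chr16:84862165-84862224 read 12.26 in wild-type BAT, 12.04 in knockout BAT, 12.27 in wild-type adipocytes and 12.04 in knockout adipocytes. The mean of its 3 probes was -0.19 in BAT (SD 0.058) and -0.34 in culture (SD 0.097). The BAT value turned to 0.34 without loess and also changed sign with outlier spots kept in the background fit.

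SIRT1 deacetylates PGC-1α. The Sirt1 probe at chr10:62838289-62838348 read 10.33 in wild-type BAT, 10.55 in knockout BAT, 10.62 in wild-type adipocytes and 10.39 in knockout adipocytes. The probe at chr10:62855795-62855854 read 11.75, 12.15, 8.86 and 8.52. Both were on the higher side in knockout BAT and on the lower side in the knockout culture, with means of 0.31 (SD 0.13, n = 2 probes) and -0.28 (SD 0.069, n = 2 probes). In BAT this was the highest of the 10 members, and 87.2% of all genes were lower. The probes parted between tissue and culture: wild-type culture minus wild-type BAT was 0.29 on the first and -2.89 on the second. SIRT3 is the main deacetylase of the mitochondrial matrix. Its single probe (chr7:137280969-137281028) read 14.98 in wild-type BAT, 15.09 in knockout BAT, 12.00 in wild-type adipocytes and 11.49 in knockout adipocytes. Its ratio was 0.11 in BAT and -0.50 in culture.

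**Figure D3:**
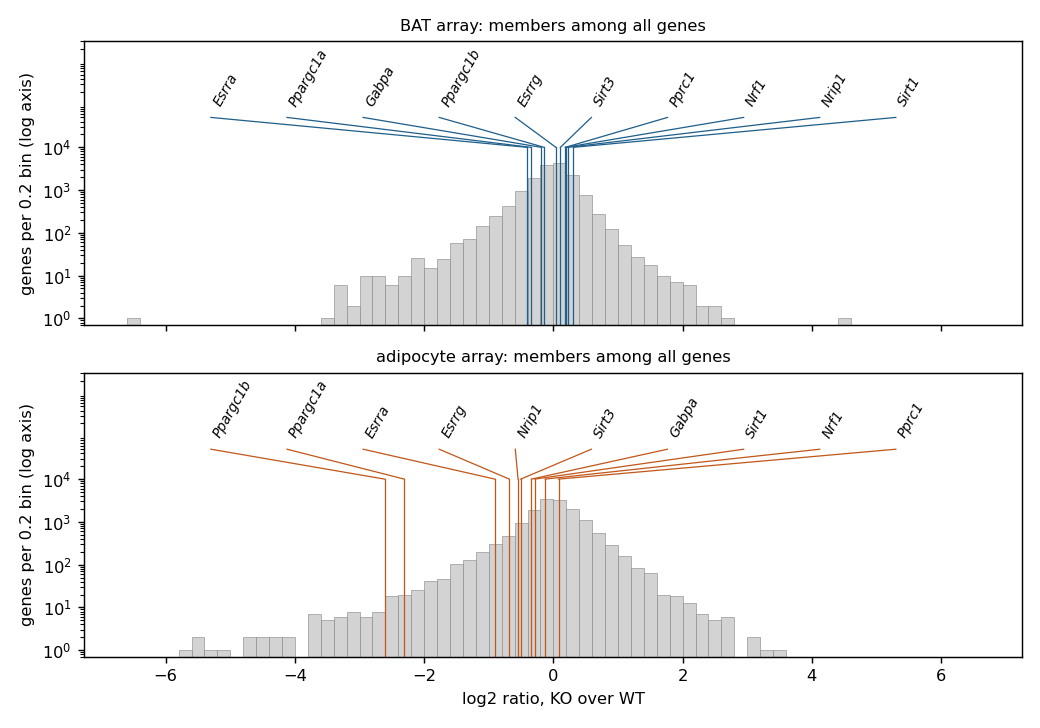
Number of genes (log axis) by log2 ratio of knockout over wild type in BAT and in cultured adipocytes, with the 10 members marked. Ppargc1b and Ppargc1a stand in the lower tail in culture, at -2.61 and -2.31, and all 10 members lie between -0.41 and 0.31 in BAT.

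The levels were also set side by side between tissue and culture. Wild-type adipocytes were below wild-type BAT on 13 of 20 probes, by 2-fold or more on 10. They were above it by 2-fold or more on 2 (Pprc1 and 1 Nrf1 probe). The same counts over all probes were not made, so these describe the members only and not a trait particular to them. Tissue and culture were hybridised on different arrays with opposite dyes, so these steps rest on scaling between the arrays and have no replicate check. On the culture array, all 10 adipocyte markers were lower in the knockout (median -4.69). The part of those markers in the lower Ppargc1a and Ppargc1b was not tested.

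The genes around the members were read from fixed lists, each described by its count past 2-fold and its median. Among 26 partners of the PGC-1 proteins kept in BAT, 1 was higher, Lpin1 (1.34), which encodes lipin-1, a phosphatase and PGC-1α cofactor, and 0 were lower; the median was 0.073. The higher count ranged from 0 (spiked-in zero) to 3 (median centring), and the lower count reached 5 with the spiked-in zero. In culture 5 of 25 were lower and 0 higher, with a median of -0.32. Lowest were Pparg (-3.49), the master regulator of fat cells, Nr1h3 (-2.08), the oxysterol receptor LXRα, and Lpin1 (-1.88). The others were Prdm16 (-1.14), which sets brown fat identity, and Ppara (-1.08), a fatty acid receptor named here after its value was seen. Pparg is also counted among the adipocyte markers above, and Prdm16 and Ppara among the brown adipocyte markers. Brakes and modifiers of PGC-1 did not pass 2-fold in BAT (0 of 18, median 0.017), where Ctbp2 at 0.26 and Ccnd1 at -0.70 lay farthest out on each side. With the spiked-in zero 2 were lower there. In culture 1 of 18 was higher, Ccnd1 (1.25), which encodes cyclin D1 and did not pass with median centring, and the median was -0.13. Regulators upstream of Ppargc1a gave 0 of 20 past 2-fold in BAT (median 0.048), with Irf4 at -0.65 and the protein kinase A subunit Prkaca at -0.61. That BAT count became 1 higher with the scanner ratios or the deposited table, and 5 lower with the spiked-in zero. In culture 1 of 21 was lower, Prkaa2 (-1.19), a catalytic subunit of AMPK, with a median of -0.15; 2 or 3 were lower under 5 alternatives.

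The other ERRs and sirtuins did not pass 2-fold: 0 of 6 in BAT (median -0.00093) and 0 of 5 in culture (median -0.12). The farthest were Esrrb (-0.71, from probes at -1.64 and 0.23) and Sirt5 (-0.38) in BAT, and Sirt7 (-0.69) and Sirt6 (0.21) in culture. In BAT 1 gene was lower with the brightest probe or with both channels above background, and 2 with the spiked-in zero; in culture 1 was lower with median centring. Genes of NAD supply, which feeds the sirtuins, gave 0 of 11 in BAT (median -0.086) and 0 of 12 in culture (median -0.11). With median centring 2 were higher in BAT, with the spiked-in zero 5 were lower there, and in culture 1 or 2 were lower under 5 alternatives. Nampt, the rate-limiting enzyme of NAD salvage, was at -0.95 in culture, and the NAD-consuming Cd38 was at -0.72. In BAT Nmnat1 was at -0.61 and Nmnat3 at 0.59.

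Lists of target genes come next. ERR targets, a list that holds Esrra itself, gave 10 of 28 lower and 0 higher in culture, with 26 below 0 and a median of -0.75; with median centring 20 were lower. The lowest 4 were the tricarboxylic acid cycle enzymes Idh3a (-2.50) and Mdh2 (-1.56), Cyc1 of respiratory complex III (-1.49) and Atp5b of the ATP synthase (-1.47). In BAT 2 of 27 ERR targets were lower, Ckmt2 (-3.01) and Fabp3 (-2.83), and the median was -0.092. That list moved with the scaling, to 8 higher and a median of 0.64 with median centring, 13 lower and -0.94 with the spiked-in zero, and a median of -0.33 with the scanner ratios. Ckmt2 and Fabp3 are also abundant in striated muscle, and the 16 muscle markers were lower on the same array (median -2.36); their part in this was not tested. Partners and targets of NRF-1 and GABP gave 0 of 17 past 2-fold in BAT (median 0.05) and 3 of 17 lower in culture (median -0.18). The BAT median became -0.79 with the spiked-in zero, below the culture median of -0.40 under that setting, and 0.61 with median centring. The BAT count became 3 lower with the spiked-in zero and 3 higher with median centring. The 3 lower in culture were the cytochrome oxidase subunits Cox6a1 (-1.48) and Cox4i1 (-1.13) and Alas1 (-1.42), the first enzyme of haem synthesis. SIRT3 substrates were below 0 in 13 of 13 in culture (median -0.71), with 3 past 2-fold: Acadvl (-1.44) and Acadl (-1.36) of fatty acid oxidation, and the superoxide dismutase Sod2 (-1.38). In culture 8 passed with median centring and 6 with the spiked-in zero. In BAT 0 of 13 passed (median 0.054). The median became -0.21 with the scanner ratios, 0.61 with median centring and -0.79 with the spiked-in zero. The BAT count became 1 higher with the scanner ratios or the deposited table, 3 higher with median centring and 5 lower with the spiked-in zero.

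Among the lists around the members, thermogenic targets of PGC-1 had the lowest median on both arrays. Ucp1, Cidea, Dio2, Elovl3 and Otop1 of this list are also brown adipocyte markers above, so those counts are not separate observations. In BAT 6 of 9 were lower and 1 higher, with a median of -1.38, and Ppargc1a itself was at -0.35 there. Ucp3 (-3.15), a relative of Ucp1, Fndc5 (-2.70), the precursor of irisin, Elovl3 (-2.14), a fatty acid elongase, and Ucp1 (-1.84) led them. The one higher gene was Cidea (1.01), a lipid droplet protein named here after its value was seen. It fell short of 2-fold, leaving 0 higher, under 5 of 9 alternatives: the scanner ratios, no offset, outlier spots in the fit, the deposited table and the spiked-in zero. The count of lower genes fell to 3 without loess (median -0.85) or with outlier spots in the background fit (median -0.50). Ucp3 and Fndc5 are also made in skeletal muscle, whose markers were lower on this array (16 of 16), and their part was not tested. In culture 6 of 10 were lower and 0 higher (median -1.71), and 1 was higher with the scanner ratios, with no offset and in the deposited table. The lower ones were led by Ucp1 (-3.78), the insulin-responsive glucose transporter Slc2a4 (-3.47), Cidea (-3.38) and Otop1 (-2.46). With the spiked-in zero the medians were -2.22 in BAT and -1.93 in culture, the reverse of the order above. The adipocyte markers moved with them (10 of 10 lower), and their part was not tested.

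**Figure D4:**
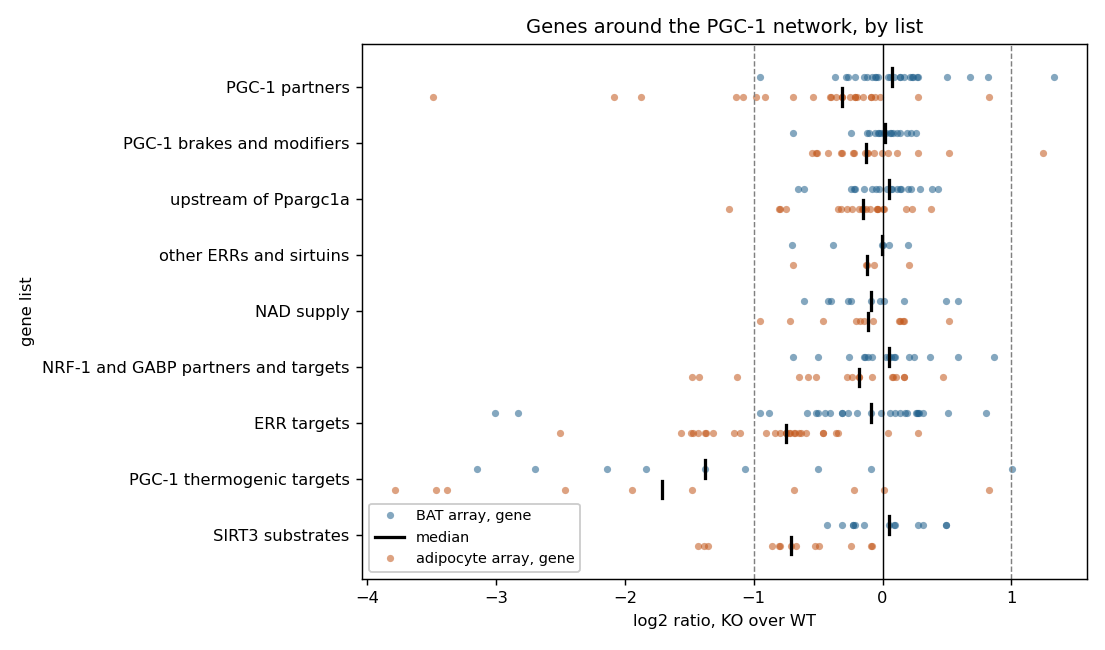
Log2 ratio of knockout over wild type of every gene in 9 lists around the members (points) with the median of each list, in BAT and in cultured adipocytes; dashed lines mark 2-fold. The thermogenic targets have the lowest median on both arrays (-1.38 and -1.71), and the SIRT3 substrates and ERR targets lie lower in culture than in BAT.

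Genes whose pair of ratios lay nearest to that of Ppargc1a were sought among 14279 genes measured on both arrays, by the straight-line distance between the log2 pairs. They were Pck1 (-0.38 in BAT and -2.26 in culture, distance 0.056), Mcrip2 (-0.28 and -2.32, distance 0.072), Ppp1r1a (-0.45 and -2.32, distance 0.097), Fam241a (-0.31 and -2.17, distance 0.15) and Prkar2b (-0.30 and -2.13, distance 0.19). Pck1 encodes the cytosolic enzyme that starts glyceroneogenesis in fat, and Prkar2b a regulatory subunit of protein kinase A. The likeness rests on 2 arrays and is a description only.

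The culture calls for Ppargc1a and Ppargc1b held under all 9 alternatives that recompute a ratio. Ppargc1a ranged from -2.96 to -2.31 and Ppargc1b from -3.08 to -2.27. In BAT, each member changed sign under at least 1 alternative, so the BAT directions above are given with that limit. Pprc1, Nrip1, Nrf1, Sirt1 and Sirt3 did so only with the spiked-in zero, which moved the median of all BAT genes to -0.84.

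**Figure D5:**
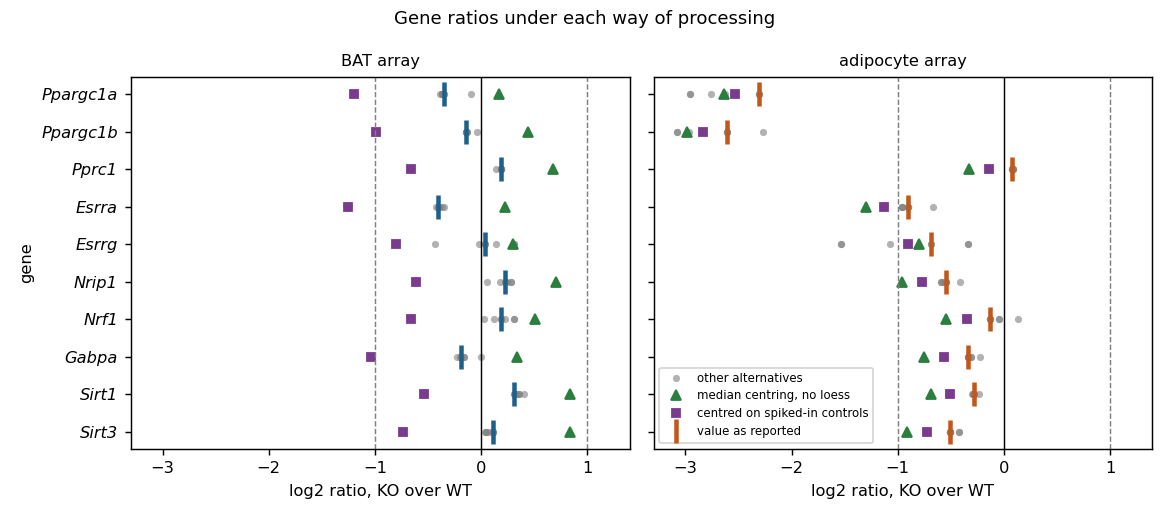
Log2 ratio of knockout over wild type of the 10 members under the reported processing and each alternative, in BAT and in cultured adipocytes; dashed lines mark 2-fold. In culture Ppargc1a and Ppargc1b stay below -2.2 under every alternative shown, and in BAT each member lies on both sides of 0. For Pprc1, Nrip1, Nrf1, Sirt1 and Sirt3 only the spiked-in zero lies below 0 in BAT.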

How the data were processed

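Per the file headers, the authors scanned 2-colour Agilent arrays and extracted a mean intensity and a background intensity per spot and dye with Agilent Feature Extraction 9.5.1.1. They deposited that output and a value table of log10 ratios. Over the gene spots with a deposited value (35756 in BAT, 36411 in culture), it differed from the software's knockout over wild-type ratio by at most 0.00496 and 0.00497 in log10. Per the labels, total RNA was amplified and labelled before hybridisation. From the deposited intensity values, log2 ratios were computed in R 4.3.3 with limma 3.58.1: spots marked as outliers were left out (1215 gene spots in BAT, 203 in culture), background was corrected by normexp with an offset of 50, and loess was run with controls at weight 0. Spots were averaged per probe. Probes had to stand well above background in 1 channel or both, and a gene's value is their mean. Levels were scaled across the arrays (Aquantile). Genes were named through RefSeq's table for GRCm38.p6: 22949 probes by accession, 6659 by symbol, 3109 by synonym, and 8455 not matched. The normalisation was also run on simulated data with known folds and a constant factor between the channels. Such data cannot show how a dye effect that varies with intensity is handled, and the outcome is not given here.

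With 1 array per comparison no test was possible, and a 2-fold threshold was used. The single array limits the precision. The members and all lists were chosen with earlier results of these data known. Named genes were all members, Prkg1, up to 4 of each pathway list past 2-fold (or the 2 farthest), up to 3 of each marker list, and the 5 genes nearest Ppargc1a. The 10 alternatives were the scanner software's ratios, no offset, median centring without loess, outlier spots kept in the fit, both channels above background, no filter, the brightest probe, naming by the reference table alone, the deposited table and a zero set by spiked-in controls. The spiked-in zero was the scanner software's own intercept for the spiked-in controls, subtracted from the loess ratios. It was not recomputed from normalised ratios of those controls. A search of protein motifs, probe sequences and the qPCR of further animals were not analysed here.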

Additional observations from a re-analysis of the deposited data

Results flagged for a closer look

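For 3 members every probe was on the higher side in knockout BAT and on the lower side in the knockout culture, so that the ratio differed between the arrays in direction. Nrip1 was 0.23 in BAT and -0.55 in culture, a difference of -0.78 over 3 probes. Sirt1 was 0.31 and -0.28, a difference of -0.60 over 2 probes. Sirt3 was 0.11 and -0.50, a difference of -0.61 on its single probe. With 1 array on each side these differences were not tested. The knockout carried Cy5 in BAT and Cy3 in culture, so for these 3 genes Cy5 was also above Cy3 on both arrays, and dye and genotype cannot be told apart. The culture values kept their sign under the alternatives run, and the BAT values turned to -0.62 (Nrip1), -0.53 (Sirt1) and -0.73 (Sirt3) when spiked-in controls set the zero, which moved the median of all BAT genes to -0.84.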

How the results depend on the processing

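In BAT the count of members lower by 2-fold rose from 0 to 3 when spiked-in controls set the zero (Esrra -1.25, Ppargc1a -1.20, Gabpa -1.03). The BAT median of 0.074 became 0.48 with median centring and no loess, -0.044 with the brightest probe per gene and -0.77 with the spiked-in zero. The culture median of -0.53 became -0.85, -0.37 and -0.75 under those 3, and -0.42 when both channels had to be above background; its count of 2 lower members kept within 1.5 times under all alternatives run. Among single members in BAT, 59 values stayed within the spread between repeated spots, 1 with a change of sign, and 31 moved, 12 with a change of sign. In culture 53 stayed, 0 with a change of sign, and 37 moved, 3 with one (Pprc1 under median centring and the spiked-in zero, Nrf1 with the brightest probe). Naming by the reference table changed no count and no median of the members. Over all genes, the BAT counts of 125 higher and 381 lower became 1401 and 951 with the scanner software's ratios, 385 and 836 with no offset, 672 and 409 with median centring, 38 and 71 with outlier spots in the fit, 1397 and 952 in the deposited table, and 17 and 4577 with the spiked-in zero. The culture counts of 377 and 631 became 876 and 956, 617 and 845, 194 and 1246, then 874 and 954 in the deposited table, and 205 and 974 with the spiked-in zero. The cause of these shifts was not tested. No paired analysis was possible because each comparison had 1 array. Signal limits Esrrg most, since 1 of its probes was not well above background in the knockout culture.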
